A study of Homo sapiens with 4 samples.

Results

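LM3 is a cultured human hepatocellular carcinoma line, and the transcriptome of LM3 cells transfected with si-FENDRR was compared here with that of LM3 cells transfected with si-NC. Each side is 1 RNA sequencing library, so every difference below lies between 2 libraries, has no replicate check and carries no test. Of 58174 genes listed, 14191 reached 1 FPKM (sequenced fragments of a gene, scaled for its length and for the size of the library) in at least 1 of the 2 libraries, 13682 with si-FENDRR and 13662 with si-NC. Pathways were read from the 8534 protein-coding genes of at least 5 FPKM in either library. The series holds 4 libraries in all, the other 2 being the same pair of transfections in RBE, a line labelled intrahepatic cholangiocarcinoma. Both LM3 cultures were grown in DMEM with serum, received Lipofectamine with their small interfering RNA (siRNA), and were collected after 48 h. The labels do not spell out si-NC, give no siRNA sequence, include no untransfected culture and do not name separate cultures, so the effect of transfection itself was not measured.

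FENDRR is a long noncoding RNA transcribed away from FOXF1, a forkhead factor of mesodermal tissues, from a shared stretch of chromosome 16. It is known from the lateral mesoderm of the embryo, where it has been described to bind Polycomb and Trithorax histone-modifying complexes and to tune the marks at developmental genes. A siRNA is meant to lower its target by RNA interference, in which an Argonaute protein carries the guide strand to matching RNA.

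In these libraries FENDRR was listed at 0 FPKM on both sides, so the transfection could not be checked on its target, and no direction below can be tied to a measured loss of FENDRR. FOXF1 and its neighbours FOXC2 and IRF8 were also listed at 0 in both. Of the neighbouring genes that were measured, FOXL1 was at 3.07 against 4.02 FPKM, MTHFSD at 6.28 against 7.93 FPKM and GSE1 at 4.51 against 7.07 FPKM, written here and below with si-FENDRR first. All 3 were lower with si-FENDRR, with differences of -0.30, -0.30 and -0.55 on the log2(FPKM + 1) scale. Every log2 difference here is given on this scale as si-FENDRR minus si-NC. This scale understates the differences of genes near 1 FPKM. By any amount, 51.9% of protein-coding genes of at least 5 FPKM were lower with si-FENDRR. FOXL1 did not reach 5 FPKM, and GSE1 shares exon bases with another gene. In RBE, MTHFSD was at 8.82 against 9.22 FPKM and GSE1 at 8.25 against 5.50 FPKM.

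The hepatocyte label was checked on 14 markers, of which 9 reached 1 FPKM, with a summed level of 203 FPKM against 205. Albumin (ALB) was at 35.7 against 33.3 FPKM, transferrin (TF) at 43.7 against 43.3 FPKM and the liver factor HNF4A at 8.34 against 9.02 FPKM, while APOA1, APOB and SERPINA1, abundant in liver tissue, were each below 1 FPKM on both sides. Cholangiocyte markers reached 1 FPKM for 3 of 7 genes, led by the biliary keratin KRT19 at 156 against 181 FPKM. The leukocyte markers PTPRC, CD3E and MS4A1 were listed at 0 in both libraries, as were 5 of 10 endothelial markers. Of those 10, 2 reached 1 FPKM, ESAM at 10.1 against 9.78 FPKM and PECAM1 at 3.10 against 3.86 FPKM. The endothelial markers summed to 14.1 against 14.2 FPKM. Among leukocyte markers 3 of 12 reached 1 FPKM, with a summed level of 87.9 against 88.5 FPKM. Most of that sum was CD68 at 60.1 against 62.2 FPKM, with CD79A at 16.8 against 19.2 FPKM, while ITGAM, an integrin of myeloid cells, was higher at 8.75 against 5.21 FPKM, and of these 3 it alone was at least 1.5-fold apart. Among fibroblast and stellate markers 3 of 10 reached 1 FPKM, with 32.8 against 29.4 FPKM, led by lumican (LUM) at 28.4 against 24.9 FPKM. Epithelial keratins were close in level, with KRT8 at 1004 against 989 FPKM and KRT18 at 158 against 159.9 FPKM.

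The 2 libraries were alike for most genes. Across genes, log2 values gave a Pearson r of 0.976, and 7942 of the 8534 protein-coding genes (93.1%) lay within 1.5-fold of each other. The median difference was -0.01, the median size of a difference 0.15, and 1% of these genes differed by more than 1.28. At least 2-fold differences were found for 339 of 14191 genes (2.39%), 189 higher with si-FENDRR (1.33%) and 150 lower (1.06%). Among protein-coding genes of at least 5 FPKM there were 177 (2.07%), 96 higher (1.12%) and 81 lower (0.949%). Because reads from overlapping genes can be assigned to either, the 4237 protein-coding genes that share no exon base with another listed gene on either strand were kept apart from the 4297 that do. The first group held 68 genes at least 2-fold apart (1.6%), 36 higher (0.85%) and 32 lower (0.755%). In the second there were 109 (2.54%), 60 higher (1.4%) and 49 lower (1.14%). FPKM summed over genes came to 498102 in the si-FENDRR library and to 484157 in the other. The number of reads behind each library is unknown. In cell lines measured in bulk, a lower value cannot tell fewer expressing cells from less RNA per cell.

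**Figure D1:**
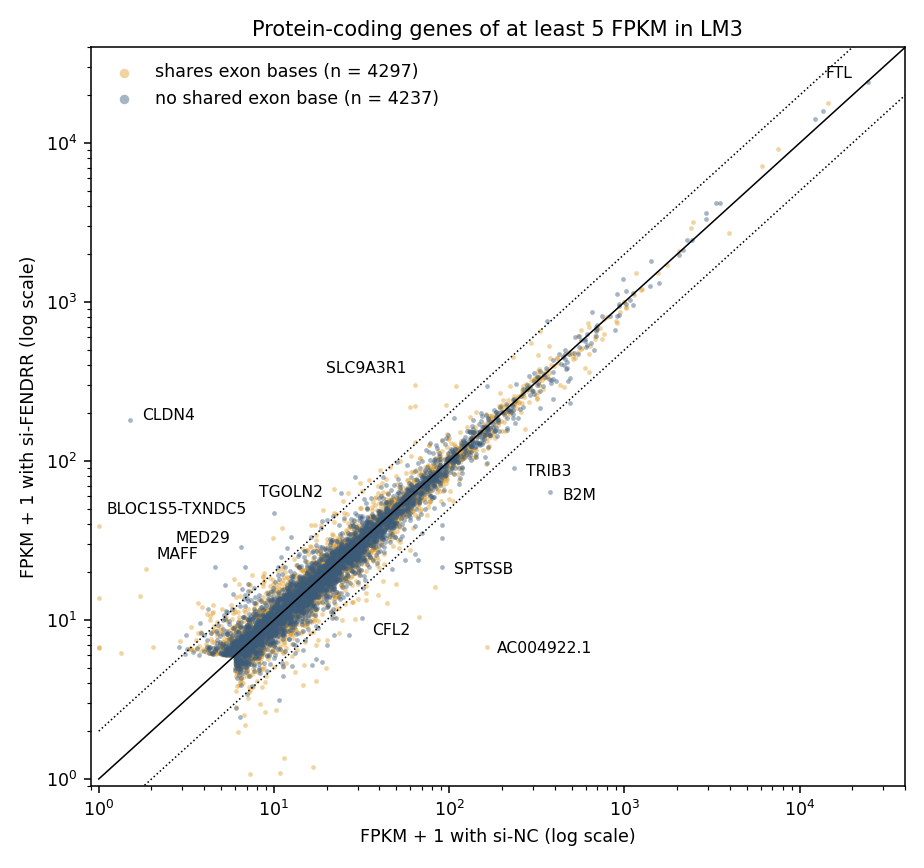
FPKM + 1 of the 8534 protein-coding genes of at least 5 FPKM in LM3, with si-NC on the x axis and si-FENDRR on the y axis, both on log scales; each point is 1 gene, blue without and orange with exon bases shared with another gene. The solid line marks equal values and the dotted lines 2-fold; most points lie between the dotted lines, and CLDN4, at 179 against 0.515 FPKM, stands farthest above them.

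The difference that stood farthest out was in claudin 4 (CLDN4), a tight-junction protein that seals the space between epithelial cells. CLDN4 was at 179 against 0.515 FPKM, a log2 difference of 6.89. The gene lies at chr7:73799542-73832693 in GRCh38 (hg38), as GENCODE 29 annotates it, and shares no exon base with another listed gene. Its si-NC value is under 1 FPKM, and the counts behind it are unknown, so the ratio has no error that can be given. In RBE the same gene was at 50.8 against 66.7 FPKM.

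Other members of the junction lists were closer together. Of 19 listed claudin and tight-junction genes, 8 were measured as protein-coding genes of at least 5 FPKM and 11 were below that. CLDN4 and F11R, the junctional adhesion molecule JAM-A, at 13.2 against 5.41 FPKM, were at least 1.5-fold higher and none was 1.5-fold lower. Over all 8534 protein-coding genes, 592 (6.94%) were at least 1.5-fold apart, 317 (3.71%) higher and 275 (3.22%) lower, which is the background for each count at 1.5-fold below. F11R shares exon bases with another gene. Such overlap is not marked at every gene below. KMT2C, IER2, TGIF2, AJUBA, RPL23, MRPL34, NFE2L2, TMED2, GABARAPL1 and CDKN2A are among the genes that also share exon bases. The scaffold protein TJP1 was at 11.1 against 11.5 FPKM, and CLDN3, which neighbours CLDN4 on chromosome 7, was at 0.295 against 0.300 FPKM. Among adherens-junction and desmosome genes 13 of 19 were measured, with 0 higher and 2 lower at 1.5-fold. These were p120-catenin (CTNND1), which holds cadherins at the membrane, at 28.2 against 47.1 FPKM, and the desmosomal plakophilin PKP3 at 18.3 against 29.9 FPKM.

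The stretch just before the CLDN4 start site is shown because this gene lay farthest apart, and because several genes of the AP-1 family are described below. The gene and the motif were chosen after the values were seen. The 250 bases before the RefSeq start site, chr7:73830746-73830995 on the plus strand of GRCh38.p14, read 5′ to 3′ as follows, with matches to the AP-1 motif TGANTCA (searched on both strands) in capitals.
CLDN4: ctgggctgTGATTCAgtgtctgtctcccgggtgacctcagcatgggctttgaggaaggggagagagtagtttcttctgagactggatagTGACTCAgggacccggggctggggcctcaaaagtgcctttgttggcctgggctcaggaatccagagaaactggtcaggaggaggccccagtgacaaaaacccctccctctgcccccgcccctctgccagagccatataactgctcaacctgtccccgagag
The motif occurs 2 times, at -242 and -161 from the start. Of 35116 RefSeq promoters of this length 6.57% hold at least 1 match, and a match is a description of letters, not of a bound site.

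The rest of the 15 highest genes without shared exons are given with what each is known to do, and no shared role among them was tested. MAFF, a small Maf protein that pairs with stress-response bZIP factors, was at 20.6 against 3.58 FPKM. MED29, a subunit of the Mediator complex that links transcription factors to RNA polymerase II, was at 27.7 against 5.50 FPKM. YTHDF3, a reader of N6-methyladenosine in mRNA, was at 20.4 against 5.80 FPKM, and the RNA-binding protein HNRNPR at 62.3 against 23.2 FPKM. The transcription factor UBP1 was at 27.4 against 10.8 FPKM and the zinc finger gene ZNF800 at 8.60 against 2.80 FPKM. TRMO, a methyltransferase of tRNA, was at 13.5 against 4.86 FPKM. Each of these genes was between 2-fold and 5-fold higher on the FPKM + 1 scale, beside a median size of 0.15 (log2) over all protein-coding genes.

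TGOLN2, the resident protein of the trans-Golgi network known as TGN46, was at 46.1 against 9.06 FPKM. VAPA, which tethers the endoplasmic reticulum (ER) to other membranes, was at 78.6 against 27.9 FPKM, and the small GTPase RALB, which acts in exocytosis, at 32.3 against 11.5 FPKM. RCN2, a calcium-binding protein of the ER, was at 14.8 against 5.55 FPKM, and GPX3, a secreted glutathione peroxidase, at 10.8 against 3.23 FPKM. MANSC1 and C9orf64 completed the 15 highest, at 15.7 against 4.25 FPKM and 7.01 against 2.15 FPKM.

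The gene lowest with si-FENDRR among those without shared exons was beta-2-microglobulin (B2M), the light chain that every classical MHC class I molecule needs to reach the cell surface. B2M was at 62.6 against 377 FPKM, a log2 difference of -2.57. It lies at chr15:44711477-44718877. Next came SPTSSB, a small subunit of serine palmitoyltransferase, the first enzyme of sphingolipid synthesis, at 20.7 against 90.4 FPKM. ZBTB4, a zinc finger repressor that binds methylated DNA, was at 4.48 against 17.9 FPKM, and SPATA2, an adaptor that brings the deubiquitinase CYLD to linear ubiquitin assembly, at 2.14 against 9.73 FPKM.

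The remaining low genes belong to several functions. GSPT1, the release factor eRF3a that ends translation, was at 22.8 against 65.5 FPKM. CFL2, a cofilin that severs actin filaments, was at 9.34 against 30.9 FPKM, and LAMTOR3, part of the Ragulator complex that recruits mTORC1 to lysosomes, at 4.70 against 16.4 FPKM. Enzymes were also present, with HIBADH of valine breakdown at 31.8 against 90.1 FPKM and the sulfite oxidase SUOX at 7.003 against 21.1 FPKM. TRIB3, a pseudokinase induced by ATF4, was at 89.6 against 234 FPKM. TSN, the nucleic acid-binding protein translin, was at 7.07 against 26.0 FPKM. NRSN2, SLC10A3, SEMA4F and ZNF672 completed the 15 lowest, with NRSN2 at 4.18 against 15.6 FPKM and SLC10A3 at 5.93 against 19.1 FPKM. SEMA4F was at 1.45 against 5.40 FPKM and ZNF672 at 3.42 against 10.3 FPKM.

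**Figure D2:**
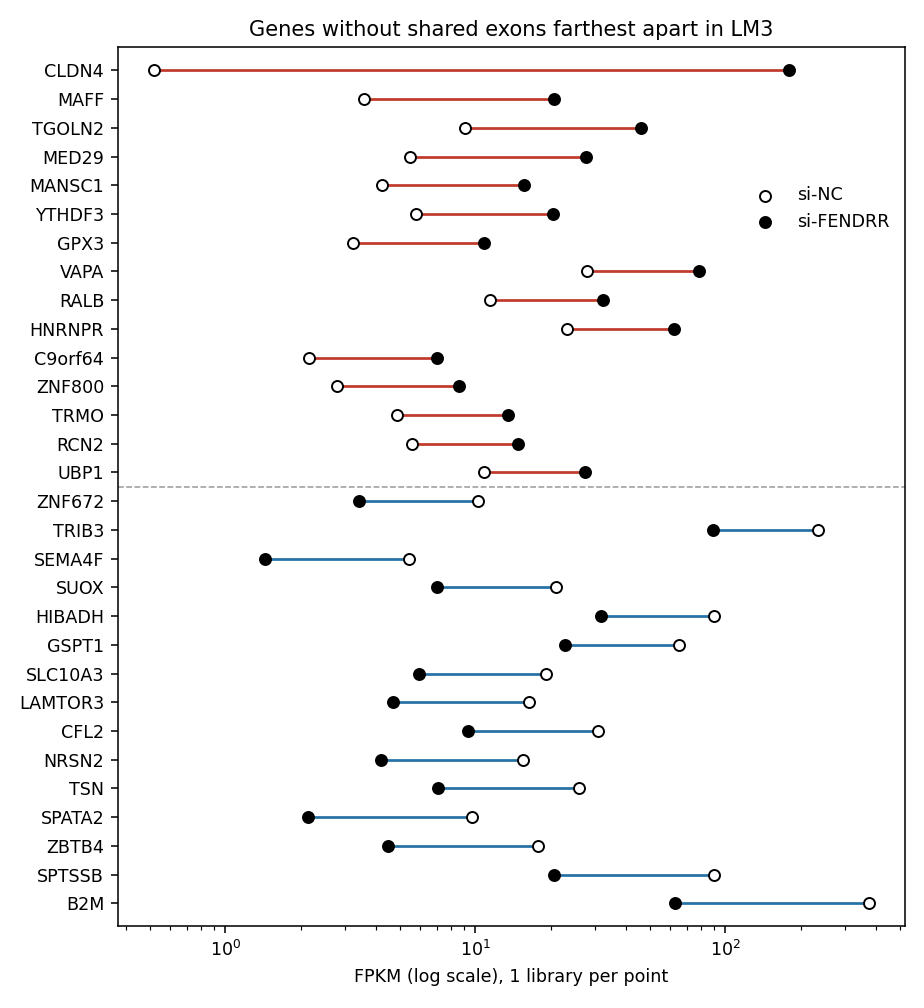
FPKM on a log axis of the 15 highest and 15 lowest protein-coding genes of at least 5 FPKM without shared exon bases in LM3, ordered by log2 difference; open points are si-NC, filled points si-FENDRR, 1 library each, joined by red where si-FENDRR is higher and blue where it is lower. CLDN4 has the longest line, from 0.515 to 179 FPKM, and B2M the longest of those that run the other way, from 377 to 62.6 FPKM.

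Genes near the 2-fold line were close to each other in value. Just over 2-fold apart lay GPR107 at 7.95 against 16.9 FPKM, PQLC1 at 14.98 against 31.0 FPKM and CHMP7 at 6.54 against 14.1 FPKM, and just under 2-fold apart XBP1 at 34.4 against 68.9 FPKM, SLC30A6 at 9.02 against 4.10 FPKM and NARS at 97.8 against 49.1 FPKM. Genes 2-fold higher had a median summed exon length of 6089 bases, those 2-fold lower 4692 and the other 4169 genes without shared exons 4691. Their medians of the mean level were 10.9, 13.3 and 15.9 FPKM, so the higher group sat at the lowest level of the 3.

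The difference in B2M was not shared by most of its pathway. Of 7 class I chain genes 5 were measured, with 0 higher and 2 lower at 1.5-fold. The second of them was the heavy chain HLA-C, at 20.3 against 38.9 FPKM. HLA-B was at 11.6 against 9.02 FPKM and HLA-E, the ligand of the NKG2A receptor, at 61.1 against 75.4 FPKM. HLA heavy chains are near-identical in places, so reads can pass between them, and HLA-C shares exon bases with another gene. All 15 genes of peptide loading and class I control were measured and none was 1.5-fold apart. Among them the peptide transporter subunits TAP1 and TAP2 were at 12.6 against 13.4 FPKM and 12.4 against 9.44 FPKM, the loading chaperone TAPBP at 28.5 against 31.3 FPKM and the class I transactivator NLRC5 at 4.93 against 5.26 FPKM. Summed over the class I chains the level was 338 against 677 FPKM, and most of that gap was B2M, at 62.6 against 377 FPKM. The loading genes summed to 652 against 626 FPKM.

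B2M and HLA-C were both at least 1.5-fold lower in LM3. In RBE they differed in opposite directions, B2M at 238 against 36.5 FPKM and HLA-C at 14.3 against 39.7 FPKM. Their promoters are shown for comparison. Both are the 250 bases before the RefSeq start site in GRCh38.p14, 5′ to 3′ on the gene's strand, B2M at chr15:44711267-44711516 (plus) and HLA-C at chr6:31272093-31272342 (minus). Capitals mark the inverted CCAAT box ATTGG, the X2 box TGACGC and the consensus of the interferon-stimulated response element, each searched on both strands, so that CCAAT also appears.
B2M: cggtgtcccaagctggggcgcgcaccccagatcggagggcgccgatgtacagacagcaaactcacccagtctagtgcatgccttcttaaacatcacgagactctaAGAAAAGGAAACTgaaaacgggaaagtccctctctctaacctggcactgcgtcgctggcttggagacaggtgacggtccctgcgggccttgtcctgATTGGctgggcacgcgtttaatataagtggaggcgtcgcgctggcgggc
HLA-C: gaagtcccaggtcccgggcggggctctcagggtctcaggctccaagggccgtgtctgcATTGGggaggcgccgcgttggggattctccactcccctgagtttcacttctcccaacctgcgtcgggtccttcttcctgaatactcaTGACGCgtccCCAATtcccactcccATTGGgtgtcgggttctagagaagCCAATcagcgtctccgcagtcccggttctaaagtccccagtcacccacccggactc
In B2M the response element and ATTGG each occur 1 time, with no TGACGC in the window. HLA-C holds 4 matches to ATTGG, 1 to TGACGC and 0 to the response element. Only exact matches to these letters were counted, so a count of 0 does not show that a variant of the element is absent. No 2 matches overlap, and the motifs were chosen after the values of these genes were seen. Across RefSeq promoters of this length, ATTGG is found in 32%, TGACGC in 7.67% and the response element in 0.29%.

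The chromatin complexes that FENDRR has been described to bind were themselves measured at close levels. Of 34 genes of the Polycomb, MLL and DNA methylation machinery 26 were measured, with 1 higher at 1.5-fold and 0 lower. The one higher was the MLL-family histone methyltransferase KMT2C, at 7.34 against 3.86 FPKM. The Polycomb methyltransferase EZH2 was at 23.2 against 20.5 FPKM, its partners SUZ12 and EED at 7.52 against 7.65 FPKM and 7.13 against 6.99 FPKM, and the shared MLL-complex subunit WDR5 at 20.7 against 21.6 FPKM. In the Mediator complex 25 of 30 genes were measured and MED29 was the only one 1.5-fold apart, with MED1 at 10.7 against 11.1 FPKM and MED14, the backbone of the complex, at 21.0 against 22.1 FPKM.

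Genes that respond to interferon or sense double-stranded RNA were mostly close. Of 30 interferon-response genes 16 were measured, with 2 higher and 0 lower at 1.5-fold and a median of 0.07. Those 2 were IFI27, an interferon-induced mitochondrial protein, at 7.51 against 4.32 FPKM, and the transcription factor IRF1 at 10.9 against 6.70 FPKM. Of 20 genes of RNA sensing and RNA interference 12 were measured, with 1 higher and 1 lower. DICER1, the nuclease that makes small RNAs, was at 5.36 against 2.82 FPKM, and MAVS, the mitochondrial adaptor of RNA sensors, at 7.52 against 13.6 FPKM. AGO2, the slicing Argonaute, was at 11.2 against 10.1 FPKM. MYD88, the adaptor of Toll-like receptors, was at 9.37 against 20.6 FPKM and PARP14 at 5.22 against 12.1 FPKM, both without shared exons and 2-fold lower. Neither is a member of the lists beside it, and both were named because they were 2-fold apart. The same holds for MAP3K11, LGR4, MAGOHB, GOLM1, CREB3L3, ACTR2 and CAV1 below. Of 24 NF-kB targets and chemokines 20 were measured, 2 higher and 1 lower. The neutrophil chemokine CXCL8 was at 26.1 against 13.8 FPKM, the apoptosis inhibitor BIRC3 at 7.92 against 4.81 FPKM and the NF-kB inhibitor NFKBIA at 42.6 against 65.2 FPKM.

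Immediate-early genes are switched on within minutes of growth factor or stress signals through the MAP kinases. Of 31 listed 29 were measured, with 4 at least 1.5-fold higher and 0 lower and a median of 0.14, and 20 of the 29 were higher by any amount against 48.1% of all protein-coding genes. IER2 was at 54.8 against 23.9 FPKM, KLF10, a zinc finger factor induced by TGF-beta, at 43.9 against 20.7 FPKM, and the growth regulator MYC at 12.8 against 6.04 FPKM. FOSL1, an AP-1 subunit, was at 67.9 against 39.8 FPKM. The FOS and JUN genes on the list were less than 1.5-fold apart, with FOS at 121 against 165 FPKM, JUN at 118 against 113 FPKM and JUNB at 222 against 210.0 FPKM. EGR1 was at 158 against 135 FPKM. In the MAP kinase list 25 of 28 were measured, with 0 higher and 1 lower, p38-alpha (MAPK14), at 5.44 against 13.7 FPKM. MAP3K11, an upstream kinase of JNK, was at 19.8 against 46.5 FPKM.

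TGF-beta signals through a pair of receptor kinases and the SMAD factors, and the genes of this pathway pointed in both directions. Of 26 listed 21 were measured, 3 higher and 3 lower at 1.5-fold, with a median of -0.03. Receptor TGFBR2 was at 41.7 against 19.0 FPKM, while TGFBR1 was at 2.60 against 2.77 FPKM. Of the SMADs, SMAD2 was at 5.99 against 12.1 FPKM, SMAD3 at 52.0 against 47.4 FPKM, SMAD4 at 6.97 against 5.59 FPKM and the inhibitory SMAD7 at 6.65 against 11.2 FPKM. The corepressors TGIF1 and TGIF2 were at 129 against 77.0 FPKM and 5.79 against 1.04 FPKM. The target ID3 was at 316 against 477 FPKM. In the Hippo list 15 of 22 were measured, with 2 higher and 0 lower. They were the Hippo kinase STK4 (MST1) at 12.6 against 5.73 FPKM and the LIM protein AJUBA at 12.9 against 5.06 FPKM. In the Wnt list 19 of 27 were measured, with 2 higher and 0 lower, MYC again and the transcription factor TCF7 at 10.1 against 4.88 FPKM. LGR4, a receptor of R-spondins, was at 4.14 against 10.3 FPKM.

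The mRNAs made inside mitochondria, which encode core subunits of the respiratory chain, differed in 1 direction. All 13 mRNAs encoded in mitochondrial DNA were higher with si-FENDRR, from 0.10 for MT-ND3 to 0.52 for MT-ND6, with a median of 0.29, and none reached 1.5-fold. They made up 17.6% of the summed FPKM with si-FENDRR and 15.1% with si-NC. MT-CO1, a core subunit of cytochrome oxidase, was at 14084 against 12316 FPKM, MT-ND1 of complex I at 3651 against 2918 FPKM and MT-CYB of complex III at 4181 against 3508 FPKM. These 13 genes come from 1 circular genome transcribed as long precursors, so they are not separate observations.

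The nuclear genes of the same complexes were on balance not higher. Of 37 nuclear complex I genes all were measured, with 0 higher and 4 lower at 1.5-fold and a median of -0.10, and 26 were lower by any amount against 51.9% of all protein-coding genes. NDUFB5 was at 12.9 against 22.6 FPKM and NDUFS8 at 36.8 against 61.4 FPKM. For complexes II to V 38 genes were measured, with 1 higher, 3 lower and a median of -0.06. The one higher was UQCRB of complex III, at 86.7 against 39.1 FPKM. The 3 lower were ATP5F1 (subunit b of ATP synthase) at 26.5 against 58.7 FPKM, ATP5G2 (subunit c) at 94.96 against 161 FPKM and COX7C at 63.8 against 100.3 FPKM. Each of these 4 shares exon bases with another gene.

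Genes of protein synthesis were close as groups. Of 79 cytosolic ribosomal protein genes 1 was higher and 2 lower at 1.5-fold, with a median of -0.09. By any amount 55 were lower, against 51.9% of all protein-coding genes. RPL23 was at 448 against 232 FPKM, RPL4 at 291 against 454 FPKM and RPLP1 at 216 against 328 FPKM. Ribosomal proteins have many processed pseudogenes, among which reads can be split. Of 75 mitochondrial ribosome genes 73 were measured, 3 higher and 2 lower, with MRPL34 at 48.3 against 18.1 FPKM and MRPS28 at 15.1 against 23.7 FPKM. All 39 translation factors were measured and GSPT1 was the 1 lower, with 0 higher. Of 27 genes of nonsense-mediated and general mRNA decay 21 were measured, 3 higher and 0 lower. The median was 0.11, but -0.18 over the 6 members without shared exons. Of the 3 higher, RBM8A and SMG8 share exon bases with another gene. The exon junction protein RBM8A (Y14) was at 62.1 against 25.3 FPKM, SMG8 at 7.403 against 2.81 FPKM and the exosome subunit EXOSC3 at 19.2 against 10.6 FPKM. MAGOHB, a paralog of the protein that RBM8A binds in that complex, was at 20.6 against 9.60 FPKM. Among splicing regulators 34 of 35 were measured, with 2 higher and 0 lower, HNRNPR and SRSF2, the latter at 57.9 against 36.8 FPKM.

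Secretory and degradative pathways held single genes that stood apart. All 36 Golgi and vesicle genes were measured, 4 higher and 2 lower at 1.5-fold. Beside TGOLN2, the cargo receptors TMED2 and TMED10 were at 91.0 against 44.9 FPKM and 38.4 against 22.5 FPKM and the golgin GOLGA4 at 15.8 against 8.91 FPKM. Lower were SAR1B, the GTPase that starts COPII budding, at 10.8 against 22.4 FPKM, and GOLGA1 at 3.01 against 5.43 FPKM. GOLM1, a Golgi membrane protein known as a liver cancer marker, was at 38.7 against 90.4 FPKM. In the lysosome and autophagy list 31 of 32 were measured, with 1 higher and 1 lower, GABARAPL1 at 31.99 against 8.82 FPKM and WIPI2 at 31.1 against 51.1 FPKM. Of 30 ubiquitin and E2 genes 2 were higher and 0 lower, with a median of 0.14 and the conjugating enzyme UBE2A at 63.3 against 40.9 FPKM. All 32 proteasome genes were measured, with 1 higher, PSMD12 at 20.5 against 12.9 FPKM, and 0 lower.

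Stress programmes gave few genes. Of 25 NRF2 genes 1 was higher and 0 lower, the factor NFE2L2 (NRF2) itself at 45.5 against 21.5 FPKM, while none of its listed targets was 1.5-fold apart. The ferritin heavy chain FTH1 was at 2733 against 3976 FPKM and the light chain FTL at 24237 against 24535 FPKM. Of 22 measured ATF4 and amino acid genes 1 was lower, TRIB3, and 0 were higher, with DDIT4 at 30.7 against 44.6 FPKM and ATF3 at 42.7 against 29.8 FPKM. Of 23 measured ER stress genes 1 was lower, XBP1, the factor spliced in the unfolded protein response, and 0 were higher. The ER chaperone HYOU1 was at 28.6 against 40.3 FPKM. All 22 heat shock genes lay within 1.5-fold. CREB3L3, a liver-enriched factor of the ER membrane, was at 22.9 against 54.6 FPKM.

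Liver identity was described by plasma proteins and transcription factors. Of 28 plasma protein genes only 10 reached 5 FPKM, and none of these was 1.5-fold apart. By any amount 9 were higher, against 48.1% of all protein-coding genes, and the median was 0.19. Alpha-fetoprotein (AFP), a fetal liver protein that returns in liver cancer, was at 10.1 against 8.25 FPKM. Of 21 liver transcription factors 12 were measured, with 1 higher and 2 lower. The lower ones were FOXA2, at 9.0 against 23.4 FPKM, and XBP1 as given above. FOXA2 shares exon bases with another gene. In contrast CEBPA was at 81.8 against 93.1 FPKM and HNF4G at 10.6 against 9.23 FPKM. Drug metabolism and efflux genes, 19 of 28 measured, had 0 higher and 1 lower and a median of -0.12, with the efflux pump ABCB1 at 7.12 against 12.4 FPKM.

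Genes of the cell cycle and of cell shape were also compared. Of 29 measured DNA replication genes none was 1.5-fold apart, and 22 were higher by any amount against 48.1% of all protein-coding genes. The median was 0.13, and 0.06 over the 17 members without shared exons. Of 29 measured G2 and mitosis genes none was 1.5-fold apart, with a median of 0.01 that turned below 0 when each library was scaled to the same summed FPKM. Among G1 regulators 14 of 19 were measured, 1 higher and 1 lower, with the CDK inhibitors CDKN2A at 72.1 against 29.9 FPKM and CDKN2C at 5.42 against 10.6 FPKM. Of 30 actin genes 29 were measured, with 2 higher and 2 lower. ARPC1A and DSTN were at 225 against 95.5 FPKM and 78.2 against 41.0 FPKM, and CFL2, given above, and profilin (PFN1), at 360.1 against 629.9 FPKM, were the lower pair. ACTR2, the Arp2 subunit of the actin-branching complex, was at 25.1 against 62.6 FPKM, and caveolin 1 (CAV1), the coat protein of caveolae, at 231 against 487 FPKM. Of 29 mesenchymal and matrix genes 14 were measured, with 1 higher, the collagen receptor subunit ITGA2 at 5.59 against 2.19 FPKM, and 0 lower.

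Lists of metabolism and growth gave at most 1 gene in each direction. Of 29 measured glycolysis and hypoxia genes 1 was higher and 1 lower, the pyruvate dehydrogenase kinase PDK1 at 9.12 against 4.78 FPKM and hexokinase HK1 at 25.0 against 41.7 FPKM. In fatty acid synthesis and storage, 21 of 25 measured, the lipid droplet protein PLIN3 was higher at 39.6 against 25.5 FPKM, and in fatty acid oxidation, 21 of 23 measured, the thiolase ACAA2 at 26.9 against 13.7 FPKM, with 0 lower in both lists. All 27 measured cholesterol genes lay within 1.5-fold, the widest apart being squalene epoxidase (SQLE) at 120.1 against 84.0 FPKM. In the PI3K, AKT and mTOR list 19 of 24 were measured and the kinase subunit PIK3CB was the 1 higher, at 14.98 against 8.91 FPKM. Of 22 S100 and annexin genes 16 were measured, with a median of 0.19 and 1 higher, S100A13 at 27.3 against 16.3 FPKM. The abundant calcium-binding protein S100A11 was at 3327 against 2922 FPKM and annexin ANXA2 at 865 against 652 FPKM. Of 28 core and linker histone genes 20 were measured, with 1 higher, HIST1H2BJ at 7.76 against 4.10 FPKM.

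Genes used as references give a scale for these values. Of 26 such genes 2 were at least 1.5-fold higher and 0 lower, with a median of 0.08, and C1orf43 was at 294 against 163 FPKM. GAPDH was at 2089.9 against 2062 FPKM, ACTB at 2473 against 2415 FPKM, PPIA at 1137 against 1112 FPKM and TBP at 8.20 against 7.91 FPKM.

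Across all 57 lists, 1197 distinct genes were measured, of which 53 (4.43%) were at least 1.5-fold higher and 33 (2.76%) at least 1.5-fold lower, beside 3.71% and 3.22% of all protein-coding genes. Of the 48 lists with at least 10 measured members, 38 had a median within 0.1 of 0. The lists were therefore described by their members rather than by their medians. Scaling both libraries to the same summed FPKM lowered every log2 ratio of FPKM by 0.04 and turned the sign of 11 of the 57 medians, each of which was at most 0.04 in size.

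**Figure D3:**
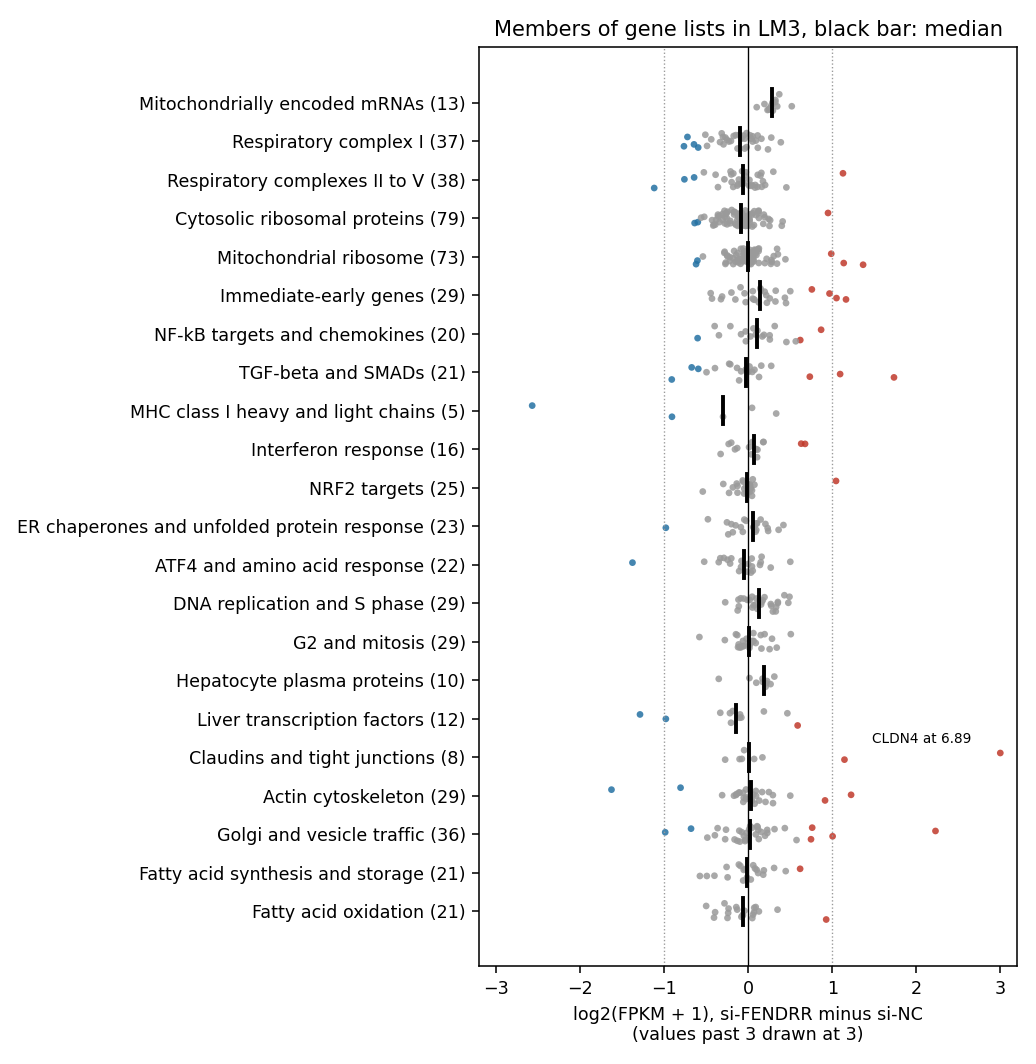
Log2 differences (si-FENDRR minus si-NC, x axis) of the measured members of 22 gene lists in LM3, 1 point per gene, with the number of measured members in brackets; red and blue points are at least 1.5-fold higher and lower, grey points less, black bars are medians and dotted lines mark 2-fold. The 13 mitochondrially encoded mRNAs lie wholly to the right of 0, whereas most other lists straddle it with single members far out, CLDN4 being drawn at the edge.

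How far apart 2 libraries of this kind lie depended on the kind of gene. Among all genes, the share at least 2-fold apart was 10.0% at a mean below 1 FPKM, 2.52% from 1 to 5 FPKM, 2.19% from 5 to 10, 1.79% from 10 to 50 and 1.68% at 50 and more. Small structured RNAs stood far above this, with 26.1% of 46 misc_RNA genes, 20% of 110 snoRNA genes, 17.1% of 105 miRNA genes and 10.8% of 37 snRNA genes. Long intergenic RNAs (2.26% of 442) and antisense RNAs (2.39% of 585) were near the protein-coding share of 1.84%. Protein-coding genes that share exon bases on the same strand were apart in 4.18% of cases, those that share them only on the opposite strand in 1.75% and those that share none in 1.60%. Of 24 protein-coding genes with readthrough names, which join a pair of neighbouring genes, 7 (29.2%) were at least 2-fold apart. Over the 2517 genes of other types of at least 1 FPKM, 124 (4.93%) were 2-fold apart, 80 higher (3.18%) and 44 lower (1.75%).

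**Figure D4:**
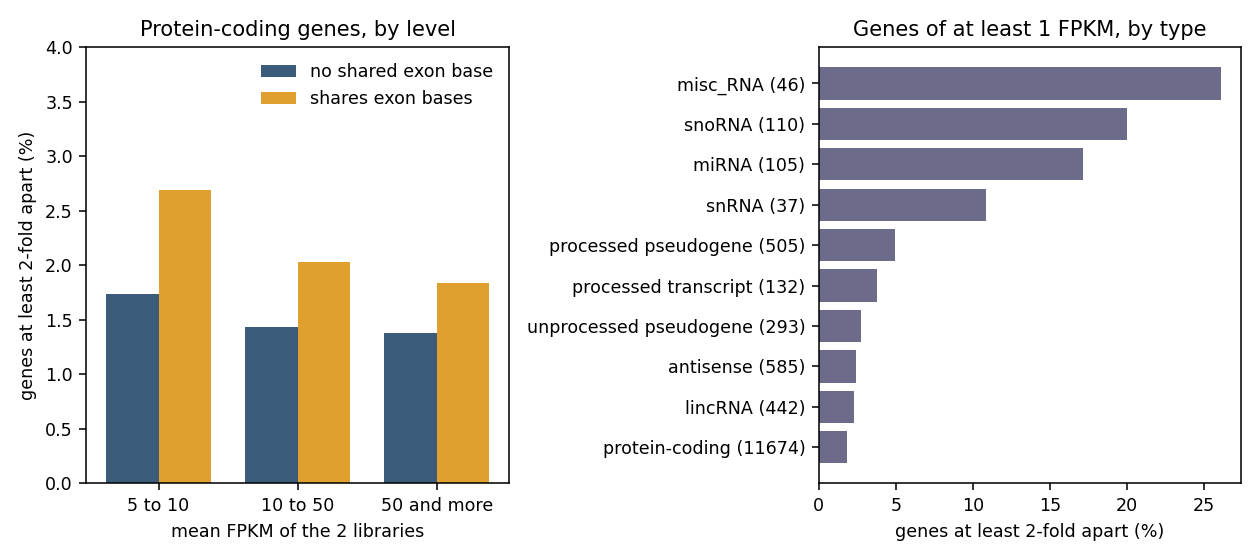
Share of genes at least 2-fold apart between the LM3 libraries (percent), on the left for protein-coding genes by mean FPKM and exon overlap, on the right for genes of at least 1 FPKM by annotated type, with the number of genes in brackets. Bars go from 1.73% to 1.38% with level for genes without shared exons, are higher at each level for genes that share exons, and reach 26.1% for misc_RNA.

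Several of the most extreme values belonged to gene models that share exon bases. The readthrough gene BLOC1S5-TXNDC5 was at 38.3 against 0 FPKM, and TXNDC5, a disulfide isomerase of the ER whose exons it includes, at 15.1 against 82.0 FPKM. AC004922.1 was at 5.79 against 163 FPKM, and ARPC1A, a subunit of the Arp2/3 complex with which it shares exons, at 225 against 95.5 FPKM. ZBED6, a transcription factor encoded within an intron of ZC3H11A, was at 13.2 against 0.718 FPKM, and ZC3H11A, an mRNA export protein, at 3.11 against 16.4 FPKM. Summed over the pair, the last came to 16.3 against 17.2 FPKM and the ARPC1A pair to 230.3 against 259 FPKM. Summed values of the TXNDC5 pair were 53.4 and 82.0 FPKM. AL662899.3 was at 19.9 against 0.856 FPKM and the casein kinase subunit CSNK2B at 15.9 against 48.4 FPKM, which sum to 35.7 and 49.3 FPKM.

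Of 2702 pairs with shared exon bases and both members of at least 1 FPKM in either library, 8 had one member at least 2-fold higher and the other at least 2-fold lower, and in 7 of these the sum over the pair differed by less than 2-fold. The exception was the histone pair HIST1H2AD, at 5.20 against 0.339 FPKM, and HIST1H3D, at 0.276 against 1.59 FPKM. All 8 pairs were selected for opposite differences, which partly cancel in a sum by construction. FPKM is scaled for the length of each gene, so a sum over a pair is not a number of reads. Whether reads passed between the members of a pair was not tested. Other extreme genes with shared exons were SLC9A3R1, the scaffold NHERF1, at 299 against 63.2 FPKM, and the tubulin TUBB2B, which has a close paralog, at 9.40 against 66.4 FPKM. AL121758.1, AP000275.2 and INO80B-WBP1 were at 12.8 against 0.00785 FPKM, 5.77 against 0 FPKM and 5.63 against 0 FPKM. MINOS1-NBL1, UBE2F-SCLY, AC020915.6 and AC007731.5 were on the low side, at 0.195 against 15.8 FPKM, 0.365 against 10.4 FPKM, 0.0928 against 9.83 FPKM and 0.0810 against 6.31 FPKM.

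**Figure D5:**
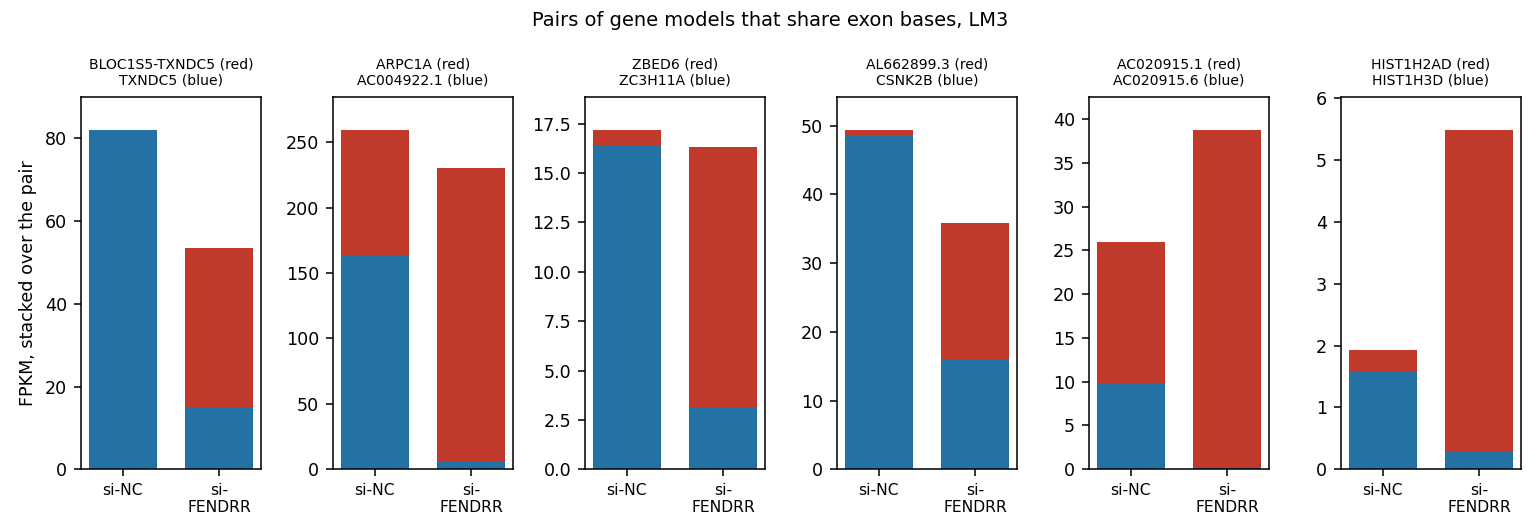
FPKM of 6 pairs of gene models that share exon bases, stacked for si-NC and si-FENDRR in LM3; red is the member that was higher with si-FENDRR and blue the one that was lower, on a separate linear axis for each pair. In the ZBED6 and ZC3H11A pair the stack keeps nearly its height, 17.2 and 16.3 FPKM, while its make-up differs.

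Among genes of other types the extremes included snoRNA genes, a miRNA gene and a pseudogene. The highest 5 were AL132639.3 at 12.6 against 0.328 FPKM, the snoRNA genes SNORA61 at 7.72 against 0.110 FPKM and SNORD36B at 6.42 against 0.0819 FPKM, the antisense gene AL645465.1 at 7.67 against 0.123 FPKM and uc_338 at 5.84 against 0.0969 FPKM. AL132639.3 is not in GENCODE 29, so its type is not known here. The lowest 5 were the pseudogene AC211486.4 at 0.128 against 11.3 FPKM, MIR22 at 0.104 against 11.02 FPKM, and the snoRNA genes SNORD65 at 0.129 against 8.62 FPKM, SNORD22 at 0.138 against 7.67 FPKM and SNORA17 at 0.201 against 7.14 FPKM. Libraries came from an mRNA kit, which is not made for short mature RNAs, and MIR22 lies within MIR22HG, its host gene, listed at 15.8 against 14.1 FPKM.

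The products of MIR22 are printed to identify the gene, with the seed (bases 2 to 8) in capitals, from RefSeq in GRCh38.p14. The 2 arms carry different seeds, and neither was measured.
hsa-miR-22-3p: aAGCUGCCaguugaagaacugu
hsa-miR-22-5p: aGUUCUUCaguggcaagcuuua

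The RBE libraries share no sample with the LM3 pair, and the 68 genes without shared exons that were 2-fold apart in LM3 were looked up there. In RBE 59 of the same 4237 genes (1.39%) were at least 2-fold apart, 29 higher (0.684%) and 30 lower (0.708%) with si-FENDRR. Of the 68, 6 were at least 2-fold apart the same way, 8 the opposite way and 54 less than 2-fold, of which 43 within 1.5-fold. The 6 were TGOLN2, GSPT1, CFL2, MAPK14, NRSN2 and SPATA2. TGOLN2 was at 37.4 against 5.09 FPKM and GSPT1 at 39.3 against 129 FPKM. CFL2 was at 5.54 against 32.5 FPKM and MAPK14 at 5.96 against 18.0 FPKM. NRSN2 was at 3.68 against 8.41 FPKM and SPATA2 at 1.64 against 5.61 FPKM. B2M, lowest in LM3, was the other way round in RBE, at 238 against 36.5 FPKM, as were MED29 at 2.79 against 15.1 FPKM and TGFBR2 at 24.8 against 51.0 FPKM. SPTSSB and CREB3L3, lower in LM3, were below 1 FPKM in both RBE libraries. No difference between the lines was tested, since each transfection in each line is 1 library.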

How the data were processed

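Total RNA of 4 transfected cultures, 1 each of si-FENDRR and si-NC in LM3 and RBE, was sequenced after mRNA library preparation, per the labels' protocols. FastQC, HISAT2 and the hg38 build are named per the submitters' processing notes. The authors deposited FPKM per gene, in 1 matrix and 4 single-library files that hold the same values. The program and annotation behind the FPKM, the use of strand and the read counts were not given in the sources used here, so depth is unknown and no interval can be given.

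Differences were computed here as log2(FPKM + 1) with si-FENDRR minus si-NC (Python 3.11.15, pandas 2.3.3, numpy 2.4.6), for genes of at least 1 FPKM in either library, or 5 FPKM for protein-coding genes. Gene types and exon overlap came from GENCODE 29, which holds 57836 of the 58174 genes. With 1 library per side no test was made. The counting code was checked on simulated data, in which differences well past 2-fold were planted in well-expressed genes. That check says nothing about genes near the 2-fold line or at low levels. Of 57 gene lists (1463 symbols) 1 symbol, HIST1H3D, matched 2 rows and was not used in its list.

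Genes named are the 15 highest and 15 lowest without shared exons, the 8 highest and 8 lowest with them, the 5 highest and 5 lowest of other types, 6 overlapping pairs, and the 2 highest and 2 lowest members of each list, with further members by role. Other genes at least 2-fold apart without shared exons were named after their values were seen. Members and lists were chosen with earlier results of these data known. Alternatives were other pseudocounts (0.1 and 5), 2 rescalings, other filters and other rules on overlap. SCO2 is listed on 2 rows and is not described. Some items are not reported here.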

Additional observations from a re-analysis of the deposited data

Results flagged for a closer look

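Of the genes named or counted in LM3, 14 were at least 2-fold apart in LM3 and at least 2-fold apart the other way in RBE; the difference between the lines was not tested, since each line has 1 library per transfection. Log2 differences are given with LM3 first. The Mediator subunit MED29 had 2.14 and -2.08, and the membrane tether VAPA 1.46 and -1.24. The GTPase RALB had 1.42 and -1.47, and the receptor TGFBR2 1.09 and -1.01. The Hippo kinase STK4 had 1.02 and -1.44, and the class I light chain B2M -2.57 and 2.67. The histone reader SPIN1 had -1.29 and 1.15, and the zinc finger gene ZNF24 -1.04 and 1.23. These 8 share no exon base with another listed gene. They come from the 68 such genes 2-fold apart in LM3, of which 6 were 2-fold apart the same way in RBE. Of all 4237 protein-coding genes without shared exons, 1.39% were at least 2-fold apart in RBE. The other 6 of the 14 do share exon bases. Values were 3.05 and -2.74 for ZBED6, and 1.37 and -1.24 for MRPL34. Values were -2.09 and 1.74 for ZC3H11A, and -2.76 and 1.62 for AC007731.5. Values were -3.31 and 2.71 for AC020915.6, and -3.81 and 1.63 for MINOS1-NBL1. Genes with shared exons were also found 2-fold apart the same way in both lines. AP000275.2 had 2.76 and 2.94, INO80B-WBP1 2.73 and 3.88, and AC004922.1 -4.60 and -3.40. TGIF2 had 1.73 and 1.87, MRPL30 1.14 and 1.39, SNORA61 2.97 and 1.57, and AL645465.1 2.95 and 2.60.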

How the results depend on the processing

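Each side is 1 library, so no result has a replicate error, leaving out a replicate leaves nothing to compare, and the reads behind low values are unknown. No paired analysis was possible because the comparison is within LM3, where 1 library per transfection gives a single pair. A fit over LM3 and RBE with the cell line as a block was not run. With a pseudocount of 0.1 in place of 1, 732 genes rather than 339 were at least 2-fold apart and 17 rather than 8 pairs were opposite. With 5, these came to 100 genes and 5 pairs, protein-coding genes to 81 (0.949%), 40 higher and 41 lower, and those without shared exons to 30, 12 higher and 18 lower. Of the latter, 3 rather than 6 were 2-fold apart the same way in RBE and 4 rather than 8 the opposite way; with 0.1 these were 8 and 12. Counting overlap on the same strand only gave 119 rather than 68 genes without shared exons at least 2-fold apart, by admitting more genes. Leaving out list members that share exon bases gave 42 rather than 86 genes at least 1.5-fold apart in the lists. Scaling to the same summed FPKM split the 2-fold genes into 170 higher and 163 lower, against 189 and 150 as deposited. It turned the balance of protein-coding genes from 96 higher and 81 lower to 86 and 89, and of those without shared exons from 36 and 32 to 31 and 35. With it, 4 of 262 named genes crossed the 2-fold line. With a pseudocount of 5, 21 did, among them GPX3, TGFBR2, KLF10, MAPK14 and STK4. No named gene past 2-fold changed sign under these settings. The settings for pairs, for the share of 2.07% and for RBE were chosen after seeing the data.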
